A study of Caenorhabditis elegans with 4 samples.

Results

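The peaks described here are the binding regions of LIN-15B on the 2 arms of chromosome III of Caenorhabditis elegans. They are defined by position alone, and this part was chosen with earlier results of these data known. The midpoint lies below 4.6 Mb (left arm) or at 9.2 Mb and beyond (right arm), in the coordinates of WormBase build WS180. This gave 511 of the 4141 regions in the list, 233 on the left and 278 on the right, while the centre of the same chromosome held 298. The assay was ChIP-seq, in which chromatin bound by a protein is recovered with an antibody and its DNA sequenced, on whole hermaphrodites of strain OP184 harvested as L3 larvae after growth at 20 °C. There were 4 libraries, 2 of DNA recovered with goat anti-GFP serum and 2 of input DNA. All came from 1 genotype, an unc119(ed3) background with the transgene wgIs184, which was introduced by bombardment, outcrossed, and carries lin-15B with TY1, EGFP and FLAG tags beside unc119. The labels list no change of the endogenous lin-15B gene, and the worms were processed whole, so binding in one cell type cannot be told apart from binding in another.

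The data are 1 combined list of regions with a position and a q-value each and no value for either replicate. The depth of the libraries is therefore unknown, no spread between replicates can be given, and every interval and p-value describes the placement of regions within this list only. Strength means -log10 of the authors' q-value. It rises with the reads in a region and is not occupancy.

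LIN-15B is a nuclear protein with a THAP domain, a zinc-binding fold that contacts DNA, and belongs to the synMuv B group. These proteins hold back vulval fates and keep genes of the germline quiet in the soma, partly through repressive chromatin at promoters. The autosomes of C. elegans are holocentric and have a middle rich in conserved, widely expressed genes, flanked by arms that recombine more often and carry more repeats and more histone H3 lysine 9 methylation. The question asked here is how LIN-15B regions are distributed and how strong they are on the 2 arms of chromosome III.

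Both arms were densely bound, and the right arm more than the left by a marginal call. The left arm held 50.9 peaks per Mb (95% exact Poisson interval 44.6 to 57.9) and the right 60.8 (53.9 to 68.4), against 64.8 (57.6 to 72.6) in the centre of chromosome III and 41.4 over the whole list. The left arm thus had 0.838 times the density of the right (interval 0.701 to 1.00; exact binomial test on shares of span, two-sided, p = 0.0466). This call is marginal: the upper limit of the interval, 1.00046, lies just above 1, so the interval includes equal density. In a quasi-Poisson model of 250 kb windows, which takes the spread from the windows themselves, the p-value was 0.0906. The call was also lost when regions under 50 bp were left out (p = 0.0687) and when spans were counted from base 1 (p = 0.0515, both exact binomial tests). Among the stronger 2070 peaks of the list the ratio was 0.668 and was called (exact binomial p = 0.0013), whereas among the weaker 2071 it was 1.06 (exact binomial p = 0.70). The exact binomial tests take peaks as independent, and the window model was not run on these 2 selections. Peaks covered 90.7 kb or 1.98% of the left arm and 107 kb or 2.35% of the right, with 2.49% in the centre.

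The 2 arms together held 55.9 peaks per Mb, 0.862 times the density of the centre (0.746 to 0.998; exact binomial p = 0.0442). This call too was lost in the window model (quasi-Poisson p = 0.0772), among the strongest 1000 peaks (exact binomial p = 0.0714) and after regions within 1 kb were merged (exact binomial p = 0.0884).

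Counted over peaks of all strengths, the shortfall of the left arm lay in its outer part. Split at its middle, the left arm held 90 peaks in the part next to the chromosome end and 143 in the part next to the centre, or 39.4 (31.6 to 48.4) and 62.5 (52.7 to 73.7) peaks per Mb. The right arm held 139 peaks in each of its 2 parts, 60.8 per Mb (51.1 to 71.8). The value of the inner left part lay within the interval of the right parts, and the interval of the outer left part lay below those of the other 3. The split was chosen after the counts were seen, so no test is given. The outer and inner parts of the left arm of chromosome II held 26.4 and 28.3 peaks per Mb, those of V 29.04 and 33.4, and those of IV, where the outer part was the fuller, 60.7 and 51.0.

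The known breaks of recombination rate on chromosome III lie further out on both sides than the edges used here, near 3.7 Mb on the left and 1.1 Mb into the right arm. They were taken from general knowledge, rounded, and not from a file of this build. Outside the left break the density was 43.3 peaks per Mb (36.8 to 50.5, 159 peaks), while the 0.9 Mb between the break and the edge of the arm held 74 peaks or 82.2 per Mb (64.6 to 103.2). On the right, the stretch between edge and break held 58.2 peaks per Mb (44.8 to 74.3, 64 peaks) and the stretch outside the break 61.6 (53.7 to 70.5, 214 peaks). With arms set at these breaks the left arm had 0.702 times the density of the right (exact binomial p = 0.00074). The arms together had 0.790 times that of the centre (exact binomial p = 0.00093). Both tests take peaks as independent, and the window model was not run with arms at the breaks.

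**Figure D1:**
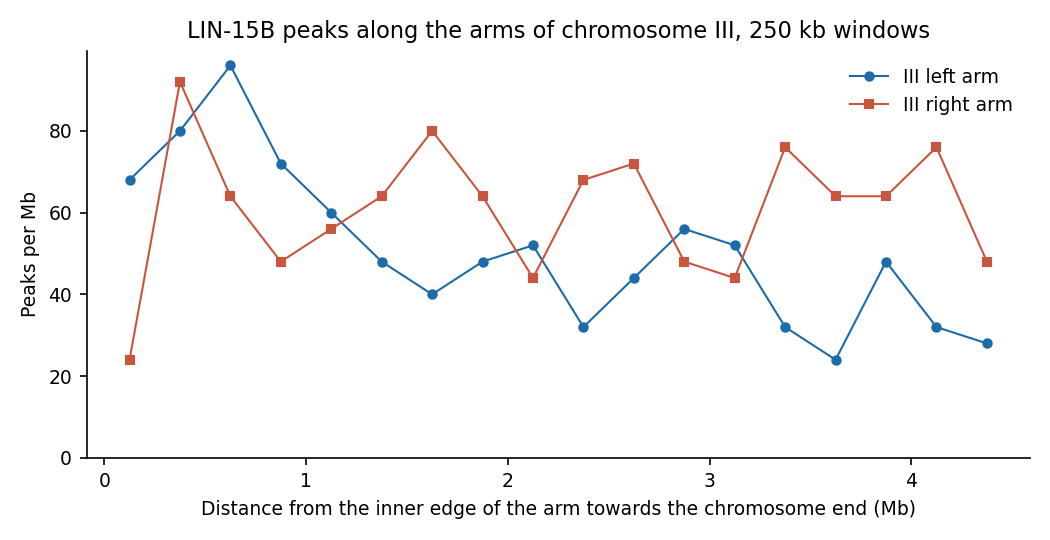
Peaks per Mb in consecutive windows of 250 kb (y axis) against the distance from the inner edge of each arm towards the chromosome end in Mb (x axis), left arm in blue circles and right arm in red squares. The left arm runs from 96 peaks per Mb near its inner edge to between 24 and 48 over its 5 outermost windows, whereas the right arm varies between 44 and 92 beyond its first window, which holds 24.

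In whole windows of 500 kb, counted from base 1, the left arm ranged from 16 peaks (1000001 to 1500000) to 38 (3500001 to 4000000), with a median of 22 over 9 windows. The window next to the fullest, 4000001 to 4500000, held 37. At this scale the right arm was more even, from 22 peaks (12000001 to 12500000) to 36 in each of 10500001 to 11000000 and 13000001 to 13500000, with a median of 34.5 over 8 windows. The ratio of variance to mean over these windows was 3.01 on the left and 0.820 on the right. Whole windows of the right arm start at 9500001 and so leave out its longest stretch without a peak. Over windows of 100 kb the ratios lay closer together, 1.41 on the left and 1.07 on the right. At the finer scale of 100 kb, the fullest windows held 11 peaks on the left, at 3700001 to 3800000 and 3800001 to 3900000, and 12 on the right, at 11900001 to 12000000. The 2 neighbouring left windows differed in strength: 7 of the 11 peaks at 3800001 to 3900000 had q under 1e-10, and 1 of the 11 at 3700001 to 3800000, beside 36.1% of the whole list. Only the left arm had 100 kb windows without a peak, 2 of 46, at 1300001 to 1400000 and 2200001 to 2300000. The longest stretches without a peak were 1249538 to 1418682 on the left (169 kb) and 9228519 to 9353823 on the right (125 kb). The latter lies just inside the inner edge of the right arm and overlaps the first window of its profile.

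The edges of the arms fell between weak and intermediate peaks. The last peak of the left arm spanned 4587122 to 4587456 with a strength of 4.78, and the first beyond it, in the centre, 4612628 to 4612914 with 2.93. On the other side, the last peak of the centre spanned 9190980 to 9191497 with 9.19, and the first of the right arm 9228119 to 9228518 with 13.6. The outermost peaks of the chromosome were that at 25600 to 25902, with a strength of 2.40, and that at 13771033 to 13771467, with 34.6.

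Against other autosomes, the arms of chromosome III stood above those of II and V, less clearly above those of IV, and the order depended on the side. Arms of II, IV and V were the outer 33.3% of the span between first and last peak at either end, and p-values were adjusted by Benjamini-Hochberg over 9 comparisons of density. The arms of II held 37.6 peaks per Mb (382 peaks), so that III was 1.49 times as dense (1.30 to 1.70; exact binomial adjusted p = 1.05e-08). The arms of V held 29.1 per Mb (405 peaks), a ratio of 1.92 (1.68 to 2.19; exact binomial adjusted p = 8.77e-22). Both calls held in the window model (quasi-Poisson adjusted p = 7.41e-05 and 1.18e-07), but that against II was lost among the strongest 1000 peaks (1.31, exact binomial adjusted p = 0.0706). The arms of IV held 46.96 per Mb (545 peaks), a ratio of 1.19 (1.05 to 1.35; exact binomial adjusted p = 0.0062) that did not pass in the window model (quasi-Poisson adjusted p = 0.0711), with arms at the recombination breaks (1.13, exact binomial adjusted p = 0.0933) or among the strongest 1000 peaks (1.20, exact binomial adjusted p = 0.16).

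Side by side, the left arm of III was denser than the left arms of II (27.4 per Mb, ratio 1.86, 1.50 to 2.31, exact binomial adjusted p = 1.05e-08) and V (31.2 per Mb, ratio 1.63, 1.35 to 1.97, exact binomial adjusted p = 3.36e-07). It was not called different from the left arm of IV (55.8 per Mb, ratio 0.912, interval 0.768 to 1.08, exact binomial adjusted p = 0.31), and with arms at the recombination breaks it was called lower (0.734, exact binomial adjusted p = 0.0030). The right arm of III was denser than the right arms of V (27.03 per Mb, ratio 2.25, 1.86 to 2.72, exact binomial adjusted p = 1.67e-17), IV (38.1 per Mb, ratio 1.60, 1.33 to 1.91, exact binomial adjusted p = 3.36e-07) and II (47.8 per Mb, ratio 1.27, 1.07 to 1.52, exact binomial adjusted p = 0.0073). Among the strongest 1000 peaks the leads over II were lost on both sides (left 1.53, right 1.20, exact binomial adjusted p = 0.0814 and 0.26).

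The balance between left and right arm also differed between chromosomes. On III there were 0.838 peaks on the left for each on the right, against 0.572 on II, 1.47 on IV and 1.15 on V. The balance of III differed from that of IV (odds ratio 0.572, 0.445 to 0.735; Fisher's exact test, two-sided, adjusted over 3, p = 2.03e-05), of II (1.47, 1.11 to 1.94; adjusted Fisher's exact p = 0.0091) and of V (0.726, 0.554 to 0.951; adjusted Fisher's exact p = 0.0168). By count, III leaned to the right, but less than II, while IV and V leaned to the left. The difference from II was lost among the stronger 2070 peaks (odds ratio 1.20, adjusted Fisher's exact p = 0.39) and among the strongest 1000 (1.28, adjusted Fisher's exact p = 0.42). With arms at the recombination breaks, where left and right arms differ in length, it turned to 0.850 (adjusted Fisher's exact p = 0.33). Those from IV and V were lost among the weaker 2071 peaks (0.807 and 0.928, adjusted Fisher's exact p = 0.33 and 0.71). These tests take peaks as independent.

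**Figure D2:**
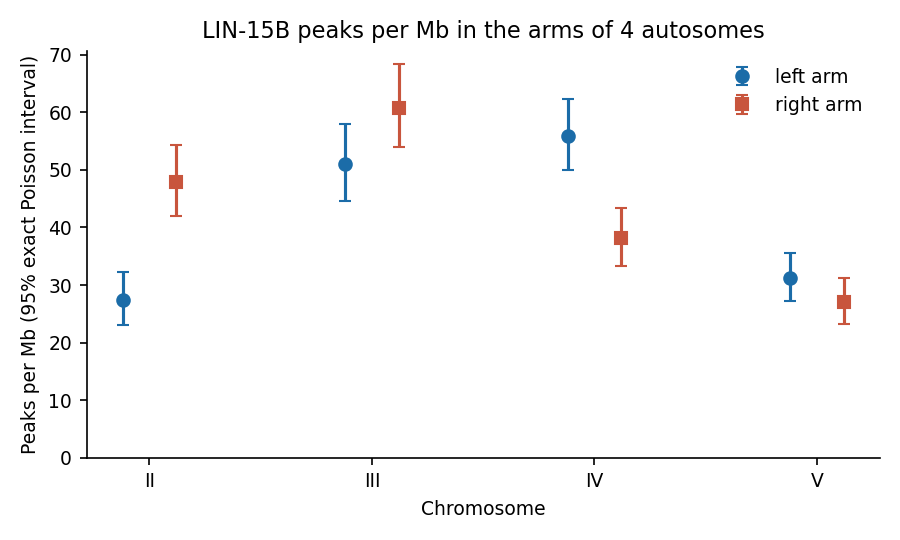
Peaks per Mb (y axis) in the left arm (blue circles) and right arm (red squares) of chromosomes II, III, IV and V (x axis), with bars for 95% exact Poisson intervals. By value the arms of III, at 50.9 and 60.8 peaks per Mb, lie above both arms of II and V. The left arm of IV, at 55.8, lies between the 2 arms of III. The intervals of the left arm of III (44.6 to 57.9) and the right arm of II (42.0 to 54.2) overlap, and these 2 were not tested against each other.

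By median, peaks of the left arm were weaker than those of the right, by a marginal call. The median strength was 5.51 on the left (quartiles 3.24 and 14.5, range 2.00 to 124) and 8.05 on the right (3.58 and 20.2, range 2.01 to 146), against 8.78 (3.82 and 20.5) in the centre and 6.30 over the whole list. The 2 distributions overlapped over nearly their whole range, and a peak drawn from the left arm was the stronger in 44.3% of left and right pairs. The Hodges-Lehmann shift, the median of all differences of a left minus a right peak, was -0.875 (-2.02 to -0.0798; Mann-Whitney test, two-sided, n = 233 and n = 278 peaks, p = 0.0276). Among the stronger 2070 peaks of the list the shift was -0.302 and not called, and among the strongest 1000 it turned to 1.56, also not called, although both selections truncate strength itself. The Mann-Whitney tests take peaks as independent, and no window model was run for strength. The arms together had a median of 6.68 and were not called different from the centre (shift, arms minus centre, -0.552, interval -1.45 to 0.119, Mann-Whitney p = 0.12, n = 511 and n = 298). The outer and inner parts of the left arm had medians of 5.52 and 5.51, and the inner and outer parts of the right 8.76 and 7.56, so the lower median was found in the sparser and the denser part of the left arm alike.

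Counted over each whole arm, the difference was in peaks of intermediate strength. Counts were nearly equal for q from 0.01 down to 0.001 (49 left, 50 right) and for q from 0.001 down to 1e-10 (109 and 110). Between 1e-10 and 1e-50 the left arm held 53 peaks and the right 98, 1.85 times the left density (interval of the ratio, right over left, 1.31 to 2.64). Under 1e-50 the counts were 22 and 20. In the whole list the 4 classes, from weakest to strongest, made up 21.9%, 42%, 29.5% and 6.54%. Arm peaks of q from 1e-10 down to 1e-50 numbered 21 in the outer and 32 in the inner part of the left arm. The inner and outer parts of the right held 52 and 46, so each left part was below each right part. Peaks weaker than 1e-10 numbered 60, 98, 75 and 85 in the same order. The near-equal arm counts of weaker peaks thus joined a low outer and a high inner part on the left. In the class from 1e-10 to 1e-50 the centre had 22.4 peaks per Mb, close to the 21.4 of the right arm, and the left arm 11.6. Outside chromosome III, this class held 8.27 and 15.7 per Mb in the left and right arms of II, 16.0 and 9.82 in those of IV and 8.20 and 6.61 in those of V. These classes were compared after their counts were seen, and no test is given.

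**Figure D3:**
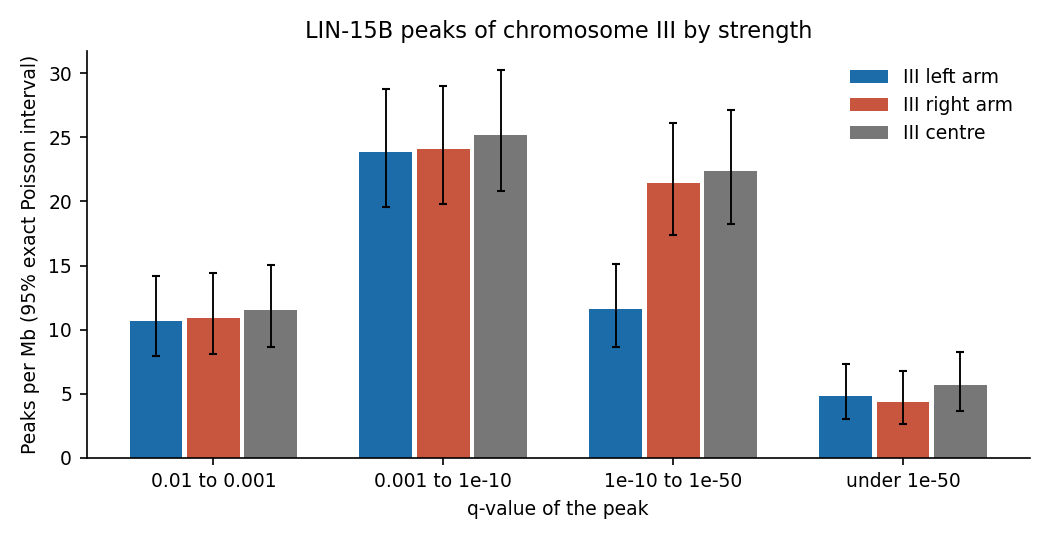
Peaks per Mb (y axis, bars from 0, with 95% exact Poisson intervals) in 4 classes of q-value (x axis) for the left arm, the right arm and the centre of chromosome III. The left arm has 11.6 peaks per Mb in the class from 1e-10 to 1e-50, against 21.4 in the right arm and 22.4 in the centre, and the 3 regions lie close together in the other classes.

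By fixed limits of q, 193 of the 511 arm peaks (37.8%, 95% exact interval 33.5% to 42.1%) had q under 1e-10, near the 36.1% of the whole list. They were 75 on the left (32.2%, 26.2% to 38.6%) and 118 on the right (42.4%, 36.6% to 48.5%). A q under 0.001 was reached by 412 (80.6%), against 78.1% in the list, with 184 on the left and 228 on the right. Under 1e-50 there were 42 (8.22%, 5.99% to 10.9%), against 6.54%, and the left arm was here the richer in share (9.44% against 7.19%, intervals 6.01% to 13.9% and 4.45% to 10.9%). The arms held 16 of the 100 strongest peaks of the list (9 left, 7 right) and 131 of the strongest 1000 (51 left, 80 right), beside 12.3% of all regions (5.63% left, 6.71% right).

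The strongest peak of the arms spanned 10758859 to 10759459 on the right, with a strength of 146 and a width of 601 bp. It ranks at place 2 of the list, and its nearest neighbour was 11.1 kb away. The next on the right were far weaker: 9406480 to 9406942 with 95.2, 10270666 to 10271117 with 94.9, 12904870 to 12905315 with 91.4 and 12351167 to 12351597 with 90.8. Those on the left formed a closer series. They were 2785672 to 2786312 with 124, 4087478 to 4088041 with 118, 3867297 to 3867810 with 115, 4281681 to 4282747 with 107 and 1080498 to 1080966 with 99.8. Apart from the first, then, the leading peaks of the left arm were stronger than those of the right, although its median was lower. Of the 5 on the left, 3 lay between 3.7 Mb and the edge of the arm. That stretch held 74 of the 233 left peaks, and 6 of the 22 left peaks with q under 1e-50. The peak at 1080498 was isolated, with 43.4 kb to its nearest neighbour, while that at 4087478 had one within 0.860 kb. None of the genes at these positions is named, because no annotation of build WS180 was used here.

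**Figure D4:**
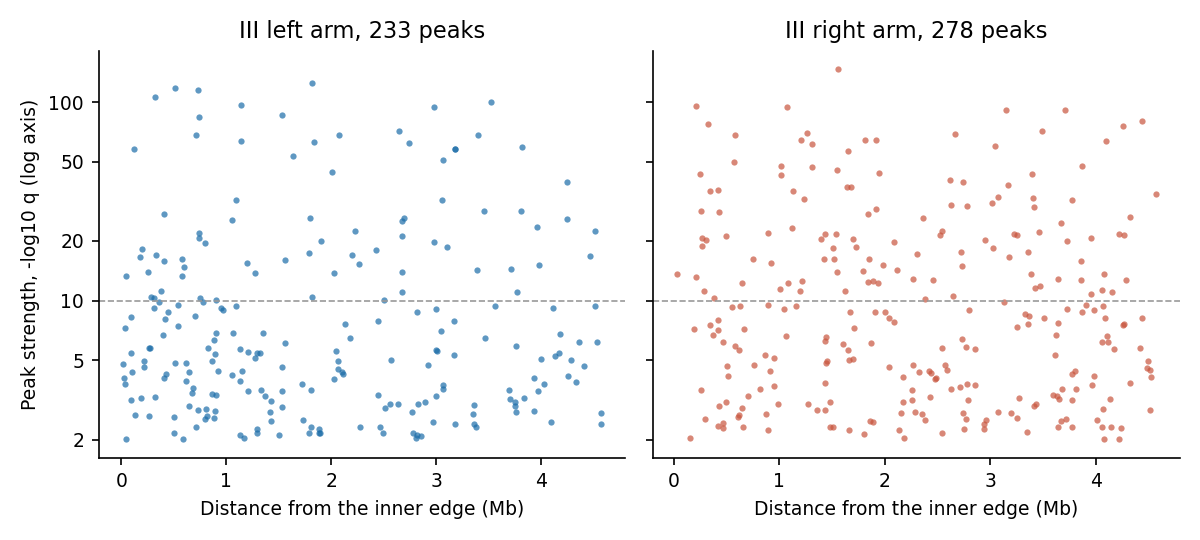
Strength of each peak, -log10 q (y axis, log scale), against its distance from the inner edge of the arm in Mb (x axis), for the 233 peaks of the left arm and the 278 of the right. The dashed line marks a strength of 10 (q of 1e-10), above which lie 75 left and 118 right peaks, and the highest point, 146, is on the right.

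Comparing strength with other arms, called differences were found only for the right arm and for both arms together. The right arm of III was stronger than that of IV (medians 8.05 and 5.05, shift 1.09, 0.277 to 2.27, Mann-Whitney adjusted over 9, p = 0.0159, n = 278 and n = 221) and that of V (median 4.85, shift 1.34, 0.410 to 2.60, Mann-Whitney adjusted p = 0.0107, n = 188). The 511 peaks of both arms of III were stronger than those of both arms of V (medians 6.68 and 4.88, shift 0.747, 0.237 to 1.38, Mann-Whitney adjusted p = 0.0107, n = 511 and n = 405). The difference from IV did not pass with arms at the recombination breaks (shift 1.03, Mann-Whitney adjusted p = 0.0759, n = 214 right peaks of III). All 3 calls were lost among the stronger 2070 peaks, and their shifts turned negative, uncalled, among the strongest 1000 (-2.26, -2.49 and -0.358). The calls also take peaks as independent and were not checked in a window model. The right arm of II had a median of 7.08 and was not called different (shift 0.125, -0.701 to 1.05, Mann-Whitney adjusted p = 0.75, n = 243). For the left arm of III the shifts were -0.258 (-1.15 to 0.511) from II, -0.179 (-0.924 to 0.420) from IV and 0.295 (-0.295 to 0.991) from V, none of them called (Mann-Whitney adjusted p between 0.57 and 0.70, n = 233). The arms of III against those of II and of IV gave shifts of -0.116 (-0.706 to 0.431) and 0.361 (-0.0721 to 0.885), also not called (Mann-Whitney adjusted p = 0.75 and 0.24, n = 511).

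Arm peaks had nearly the median width of the list. It was 357 bp on the left (quartiles 292 and 437) and 373.5 bp on the right (293.5 and 439.75), against 367 bp over all peaks. Regions over 1000 bp numbered 4 in the arms (0.783%), against 58 in the list (1.40%). On the left they were 4017978 to 4019297 (1320 bp, strength 16.3), 887528 to 888705 (1178 bp, 14.5) and the strong peak at 4281681 (1067 bp). On the right there was 1, at 12368343 to 12370271 (1929 bp, strength 38.4). The right arm also had 4 regions under 50 bp and the left none, 0.783% of arm peaks against 36 or 0.869% in the list. One of these, at 12639350, was a single base with a strength of 3.03, and the others, of 6, 38 and 41 bp, reached 2.12 to 2.52. The narrowest on the left spanned 2791537 to 2791591 (55 bp, strength 2.32).

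Across the arm peaks, which share libraries and are not independent, width and strength had a Spearman correlation of 0.705 (n = 511), 0.695 on the left and 0.707 on the right. Both values come from one peak call. Among peaks of up to 297 bp the median strength was 2.89 on the left and 2.82 on the right. From 298 to 367 bp it was 5.44 and 7.15, and from 368 to 450 bp 11.1 and 18.7. Among peaks of 451 bp or more the order turned, with 18.8 on the left (52 peaks) and 16.2 on the right (61 peaks). The class from 368 to 450 bp was also the one in which the counts differed most, with 55 left and 85 right peaks. The differences within width classes were not tested.

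The share of neighbours within 2 kb differed little between the 2 arms. The median distance between midpoints was 10.04 kb on the left and 11.2 kb on the right, although the left arm was the less dense. Within 2 kb lay 27 of 232 neighbouring pairs on the left (11.6%, 95% exact interval 7.81% to 16.48%) and 34 of 277 on the right (12.3%, 8.65% to 16.7%), together 61 of 509 or 11.98% (9.29% to 15.1%). The share was 12.1% in the centre, 9.74% in the arms of II, 16.0% in those of IV, 11.9% in those of V and 11.0% over the list. These shares were not tested against each other. Pairs more than 100 kb apart numbered 5 of 509 in the arms of III (4 left, 1 right), 17 of 380 in those of II, 21 of 543 in those of IV and 36 of 403 in those of V. There was 1 of 297 in the centre of III, and 150 of 4135 over the list. These counts follow in part from the density itself.

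**Figure D5:**
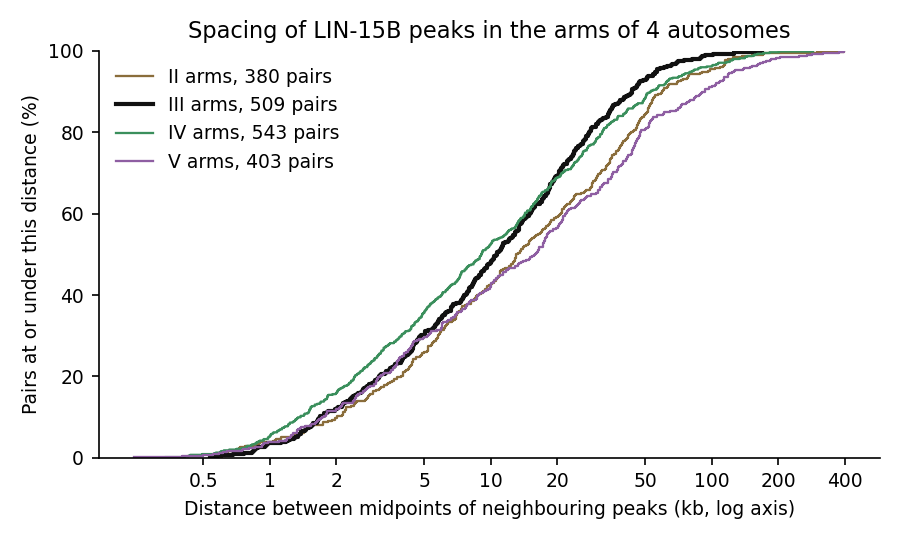
Share of neighbouring pairs (y axis, percent) at or under a given distance between midpoints (x axis, kb, log scale) in the arms of chromosomes II, III, IV and V. The black curve of III reaches 11.98% at 2 kb, close to the curves of II and V and under that of IV at 16.0%, and ends at 170 kb, while the others reach 287 to 398 kb.

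Runs of peaks each within 5 kb of the next were short. The left arm had 17 runs of 3 or more, holding 58 peaks, and the right 16, holding 52, while 111 left and 136 right peaks had no neighbour within 5 kb in their arm. The longest on the left had 5 peaks, and of the 2 such runs that at 3695494 to 3705295 covered 9.80 kb with strengths from 2.79 to 10.05. On the right none exceeded 4 peaks. Runs were counted in the arms of III only. Of neighbouring pairs there, 30.3% lay within 5 kb, against 26.8% over the list. The share was 25.8% in the arms of II, 35.7% in those of IV and 29.8% in those of V, not tested. The closest pair of the left arm lay at 3067392 to 3067643 and 3067871 to 3068323, with 227 bp between their edges and strengths of 2.92 and 86.5. That of the right arm lay at 13258121 to 13258489 and 13258716 to 13258961, 226 bp apart, with 6.16 and 2.31.

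Of the pairs within 2 kb, both partners had q under 1e-10 in 3 left and 5 right pairs, 1 of them in 12 and 16, and neither in 12 and 13. Over the whole list 36.1% of single peaks had q under 1e-10, and nothing particular to close pairs is read from these counts. Peaks with a neighbour within 2 kb (112 of 511) had a median strength of 6.03 (quartiles 3.31 and 15.2), those with the nearest at 2 to 10 kb (254) 6.28 (3.20 and 17.5), and those further apart (145) 8.55 (4.03 and 17.0). The shares under 1e-10 were 36.6%, 37.4% and 39.3%. These values were not tested, and peaks of a pair share the caller's treatment of that region.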

How the data were processed

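ChIP and input DNA of 2 replicates each were sequenced, and the data used here are 1 combined list of 4141 regions. Per the file headers the coordinates follow WormBase WS180. PeakSeq is given on every line as the caller. The q-value of each region is as the authors deposited it, and none exceeds 0.01. For the aligner, filters, caller settings and the way of combining replicates, details were not given in the sources used. Per the labels' protocols worms were fixed in 2% formaldehyde, stopped with 100 mM Tris, and lysates were sonicated; the protocol speaks of embryos, the labels of L3.

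Strength is -log10 q, position the midpoint, and width counts first to last base. Spans run from the first to the last midpoint of a chromosome. The alternative arms at recombination breaks used breaks from general knowledge, rounded and not matched to this build. These lay near 3.7 and 10.3 Mb on III and 4.9 and 12 Mb on II. On IV they lay near 3.9 and 13 Mb, and on V near 5.9 and 16.5 Mb. Counts were compared by exact binomial and Fisher's exact tests, strengths by Mann-Whitney tests, all two-sided, with Benjamini-Hochberg adjustment within each set and a threshold of 0.05. Intervals are at 95% (exact Poisson, Clopper-Pearson or Hodges-Lehmann) and cover counting error only. The 2 functions for density and strength were tested on simulated data. Those data were independent counts and strengths, so dependence between neighbouring peaks was not covered. The named regions are the 5 strongest peaks of each arm, the extremes of width, spacing and window count, and the peaks at the edges; regions over 1000 and under 50 bp were added after their values were seen. Members and comparisons were chosen with earlier results of these data known. Alternatives are given at the end. Software was Python 3.11.15 with numpy 2.4.6, scipy 1.17.1, pandas 2.3.3, statsmodels 0.14.6 and matplotlib 3.10.9. No genome or annotation of WS180 was used here, so sequences and genes of the regions were not analysed.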

Additional observations from a re-analysis of the deposited data

How the results depend on the processing

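No paired analysis was possible because only 1 combined value exists for each region, which also prevented leaving out a replicate. Of 162 alternatives, 124 kept direction and side of the threshold, among them values called neither before nor after. The alternative of the weaker 2071 peaks was chosen after seeing the data and applied to counts only. Unless a construction is named, the cause was not tested.

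Left over right density on III (0.838) lost its call without regions under 50 bp (0.850), with spans from base 1 (0.838) and in the window model (0.828), and turned to 1.06 among the weaker 2071 peaks. Arms over centre (0.862) lost it in the window model (0.855), among the strongest 1000 peaks (0.775) and after merging within 1 kb (0.877), and turned to 1.00194 among the weaker peaks. Among the strongest 1000 peaks, where fewer peaks are counted, III arms were not called denser than arms of II (1.31, left 1.53, right 1.20) or IV (1.20). Against IV the call was also lost at the recombination breaks (1.13), in the window model (1.19) and among the weaker peaks (1.12), and the left arm was called lower at the breaks (0.734) and turned to 1.01 among the weaker peaks. Among the weaker peaks the right arm was not called denser than those of II (1.18) and IV (1.26). The balance against II was not called among the stronger 2070 (1.20) or the strongest 1000 (1.28) and turned to 0.850 at the breaks, where left and right arms differ in length. Against IV and V it was not called among the weaker peaks (0.807 and 0.928).

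Taking the stronger 2070 or strongest 1000 peaks truncates strength itself. Among the stronger 2070 the shifts were no longer called for left against right (-0.302), for III arms against V (0.948), and for the right arm against IV (0.517) and V (1.33), and that of the right arm against II turned to -0.912. Among the strongest 1000 these turned to 1.56, -0.358, -2.26 and -2.49 in the order of the first 4, with the arms against IV at -0.112 and the left arm against IV at 1.45, none called. At the breaks the right arm against IV (1.03) was not called and the arms against II turned to 0.0265. The share of neighbours within 2 kb, 11.98%, was 30.3% at 5 kb, as a longer distance takes in more pairs. Unknown depth limits statements on stretches without a peak, since binding there may lie under the threshold of the list.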
